A study of Homo sapiens with 4 samples.

Results

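Older L1 subfamilies are here all repeat subfamilies that the deposited repeat table assigns to the L1 family and whose name starts with L1M or HAL1. This rule gave 92 of 15583 subfamilies, and 92 of the 132 in the L1 family. By name they fall into 12 L1MA, 7 L1MB, 11 L1MC, 6 L1MD, 27 L1ME, 25 numbered L1M (such as L1M1 or L1M4b) and 4 HAL1 subfamilies. H3K4me3, trimethylation of lysine 4 of histone H3, was profiled by CUT&Tag, which uses an antibody to direct a transposase to the mark. HCC1428 cells, an established luminal breast adenocarcinoma line labelled wild type, received 2.5 µM of the KDM5 inhibitor C48 or the vehicle DMSO and were collected on day 5. There were 2 C48 and 2 DMSO libraries, and all 4 carried Drosophila spike-in nuclei. The labels number the libraries of a group as biological replicates without saying that each had its own culture. The p-values therefore describe the spread among these 4 libraries alone, and that spread may be technical.

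L1, or LINE-1, is a retrotransposon that copies itself through an RNA intermediate with a reverse transcriptase of its own. L1M elements spread in early mammals, with L1MA the youngest of the lettered groups and L1ME the oldest, long before the L1PA and L1HS copies of primates. HAL1 elements are old relatives that lack the reverse transcriptase frame. Old copies are truncated and have lost many CG dinucleotides to mutation, and in somatic cells L1 copies mostly lie in silent chromatin. H3K4me3 marks active promoters, and KDM5 enzymes remove methyl groups from this lysine.

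The sequences of 2 H3K4me3 peaks annotated to older L1 elements are shown. The peaks are a named rise annotated to HAL1ME and the largest named fall, annotated to L1M4b. Both are from hg38, on the plus strand and 5′ to 3′, and capitals mark CG dinucleotides. The 300 bases around each peak's centre are given, at chr21:28243446-28243745 for HAL1ME, between genes, and at chr7:121395856-121396155 for L1M4b, in intron 1 of FAM3C.
HAL1ME near LINC01695: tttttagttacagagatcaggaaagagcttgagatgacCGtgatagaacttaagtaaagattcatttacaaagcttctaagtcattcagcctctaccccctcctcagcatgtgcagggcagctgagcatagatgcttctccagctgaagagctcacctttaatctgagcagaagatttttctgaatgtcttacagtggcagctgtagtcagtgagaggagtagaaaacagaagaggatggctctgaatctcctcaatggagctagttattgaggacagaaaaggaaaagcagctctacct
L1M4b near FAM3C: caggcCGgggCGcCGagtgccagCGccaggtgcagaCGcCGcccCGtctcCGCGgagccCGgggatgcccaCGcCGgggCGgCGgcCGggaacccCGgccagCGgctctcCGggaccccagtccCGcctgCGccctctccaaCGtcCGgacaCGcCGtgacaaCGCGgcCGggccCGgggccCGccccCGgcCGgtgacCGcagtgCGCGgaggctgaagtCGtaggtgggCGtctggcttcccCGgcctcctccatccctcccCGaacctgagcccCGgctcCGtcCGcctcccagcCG

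The HAL1ME stretch held 1 CG dinucleotide, and the L1M4b stretch next to the FAM3C transcription start site held 42. The values of both peaks are given with the peaks below.

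The repeat table held 11663193 and 14041166 counts in the C48 libraries and 14807125 and 11315054 in the DMSO libraries. Older L1 subfamilies took 593090 and 703029 of these counts in C48 and 719517 and 562306 in DMSO. Aligned tags were estimated as the depth at which the peak values come closest to whole tags. The estimates were 58.4 and 72.7 M in C48 and 88.4 and 64.6 M in DMSO. Simple repeats took 22.9% and 23.4% of repeat counts in C48 and 32.1% and 31.7% in DMSO, and the part of this shift in the results below was not tested. Of 8 luminal breast genes, 6 had a peak within 1 kb of the transcription start site (ESR1, FOXA1, KRT8, KRT19, ELF3 and CDH1), against none of 3 blood and 2 fibroblast genes.

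Relative to the bulk of repeats, older L1 subfamilies did not move one way. In edgeR's quasi-likelihood test over 4364 subfamilies, with Benjamini-Hochberg adjustment and calls at 0.05, 47 of the 92 were higher in C48, 27 were lower and 18 were not called. That is 51.1% higher, against 31.6% of all tested subfamilies, and 29.3% lower, against 33.4%. Among the 1056 tested interspersed subfamilies (LINE, SINE, LTR, DNA and retroposon) the shares were 57.0% higher and 15.8% lower. The share of older L1 subfamilies that were higher was thus above that of all repeats and below that of interspersed ones. With TMM on interspersed repeats the comparison with all repeats turned, with 15.2% higher, against 18.2% of all tested, and 51.1% lower, against 45.7%. All 92 passed the filter on low counts, with mean counts per library of 112 to 23939 and a median of 5607.

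The median log2 fold change of older L1 subfamilies was 0.14, with a range of -0.98 to 0.60 and standard errors of 0.028 to 0.16. The median was 0.02 over all tested subfamilies, 0.25 over interspersed ones and -0.11 over simple repeats. Both C48 libraries lay above both DMSO libraries in 50 older L1 subfamilies, or 54.3% against 41.5% of all tested. Both lay below in 32, or 34.8% against 40.5%. In 10 subfamilies the groups overlapped.

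**Figure D1:**
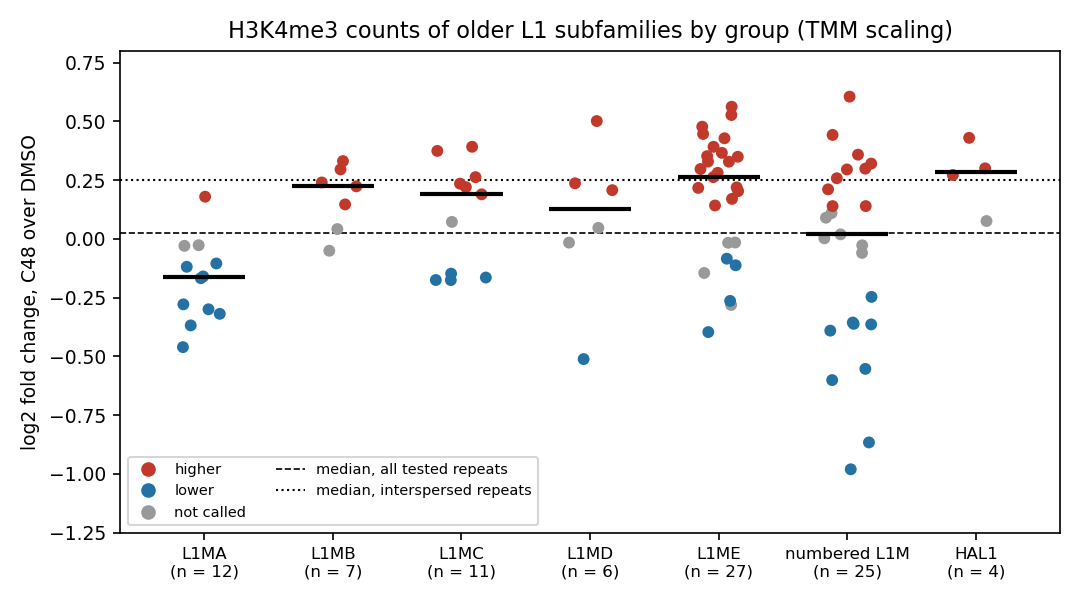
Log2 fold change of normalised H3K4me3 counts, C48 over DMSO (y axis, TMM scaling), of the 92 older L1 subfamilies by name group (x axis), with 1 point per subfamily coloured by the edgeR call, bars at group medians and lines at the medians of all tested (0.02) and of interspersed repeats (0.25). L1MA lies lowest with a median of -0.16, L1ME and HAL1 highest with 0.26 and 0.29, and numbered L1M spreads from -0.98 to 0.60.

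The L1MA subfamilies, the youngest by name, were mostly lower in C48 with TMM on all repeats. Of 12, 9 were lower, 1 was higher and 2 were not called, with a median of -0.16. Of all tested subfamilies 33.4% were lower and 31.6% higher, and of interspersed ones 15.8% and 57.0%. On aligned tags 4 were lower, 1 was higher and 7 were not called, against 25.5% lower and 36.9% higher of all tested. L1MA2 had the largest fall, with 650.1 and 625 normalised counts per M repeat counts (CPM) in C48, against 852 and 903 in DMSO. Its log2 fold change was -0.46 (SE 0.037, adjusted p = 1.57e-08 by edgeR). L1MA3 had 935 and 883 CPM in C48, against 1112 and 1125 in DMSO (log2 fold change -0.30, SE 0.034, adjusted p = 9.31e-07 by edgeR). In both subfamilies the groups were apart, with both C48 libraries the lower ones.

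L1MA4A had 1249 and 1169.9 CPM in C48 and 1279.8 and 1321 in DMSO, a log2 fold change of -0.10. This small fall was 0.02 when libraries were scaled on aligned tags, and its call was lost without C48 replicate 2 or DMSO replicate 2. L1MA10 was the exception in the group. It had 279.9 and 275 CPM in C48, against 241 and 249 in DMSO, a rise of 0.18 on the log2 scale that turned to -0.08 when TMM factors were set on interspersed repeats.

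The L1MB subfamilies were higher in 5 of 7 and lower in none, with a median of 0.22, against 31.6% higher and 33.4% lower of all tested. None was higher and 3 were lower with TMM on interspersed repeats, against 18.2% and 45.7% of all tested. L1MB4 had 545 and 558 CPM in C48, against 435 and 443 in DMSO, and rose by 0.33 on the log2 scale (SE 0.035, adjusted p = 4.89e-07 by edgeR). L1MB3 had 1511 and 1533 CPM in C48 and 1231 and 1249.98 in DMSO (log2 fold change 0.30). L1MB7 had 1771 and 1779.8 CPM in C48 and 1461 and 1547 in DMSO (0.24). In all 3, both C48 libraries lay above both DMSO libraries, but with TMM on interspersed repeats L1MB7 turned to -0.02 and L1MB3 and L1MB4 lost their calls.

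The L1MC subfamilies split with TMM on all repeats, with 6 of 11 higher and 4 lower (median 0.19), against 31.6% and 33.4% of all tested. On aligned tags 7 were higher and none lower, against 36.9% and 25.5% of all tested. With TMM on interspersed repeats 2 were higher and 5 lower, against 18.2% and 45.7%. The largest rise was that of L1MC5a, with 1228 and 1214 CPM in C48 against 933 and 928 in DMSO (log2 fold change 0.39, SE 0.03, adjusted p = 1.16e-08 by edgeR). L1MC4 had 1607 and 1595 CPM in C48 and 1213 and 1258 in DMSO (0.37), and L1MC3 rose by 0.22, a value that was -0.04 with TMM on interspersed repeats. The largest fall was that of L1MCb, with 115 and 110.4 CPM in C48 against 122 and 133 in DMSO (-0.18, adjusted p = 0.0232 by edgeR). L1MC5a and L1MC4 kept both C48 libraries well above DMSO. The call of L1MCb was lost without C48 replicate 2 (-0.15) or DMSO replicate 2 (-0.13) and when scaled on aligned tags (-0.05).

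The L1MD group held a strong change each way within 6 subfamilies. L1MDb had 645 and 639 CPM in C48, against 924 and 907 in DMSO, and its log2 fold change was -0.51 (SE 0.032, adjusted p = 1.05e-09 by edgeR). L1MD had 482 and 496 CPM in C48, against 339 and 352 in DMSO, and rose by 0.50 (SE 0.038, adjusted p = 8.99e-09 by edgeR). Both held in direction and call under all 5 scalings. Of the others, L1MD2 (0.21, but -0.05 with TMM on interspersed repeats) and L1MD3 rose, and L1MD1 and L1MDa were not called.

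The L1ME subfamilies, the oldest of the lettered groups, were mostly higher with TMM on all repeats. Of 27, 19 were higher, 4 were lower and 4 were not called, with a median of 0.26. Of all tested subfamilies 31.6% were higher and 33.4% lower, and of interspersed ones 57.0% and 15.8%. With TMM on interspersed repeats 8 were higher, 9 were lower and 10 were not called, against 18.2% higher and 45.7% lower of all tested. L1ME3D had 275 and 268 CPM in C48, against 183 and 185 in DMSO (log2 fold change 0.56, SE 0.045, adjusted p = 1.76e-08 by edgeR). L1ME4b had 1770.05 and 1836 CPM in C48, against 1243 and 1261 in DMSO (0.53, SE 0.031, adjusted p = 3.71e-10 by edgeR). Both stood clear of DMSO in each library. L1ME1 rose by 0.17, with 1976 and 1945 CPM in C48 and 1736 and 1749 in DMSO, and was at -0.09 with TMM on interspersed repeats.

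The largest fall in L1ME was in L1MEg2, which had 19.1 and 16.0 CPM in C48 and 20.8 and 25.4 in DMSO. Its log2 fold change was -0.40 (SE 0.13, adjusted p = 0.014 by edgeR). Its C48 values lay only just under the lower DMSO value, and the call was lost with DESeq2 at the same size (-0.40), and on aligned tags and without C48 replicate 2 or DMSO replicate 2 (-0.27 each).

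**Figure D2:**
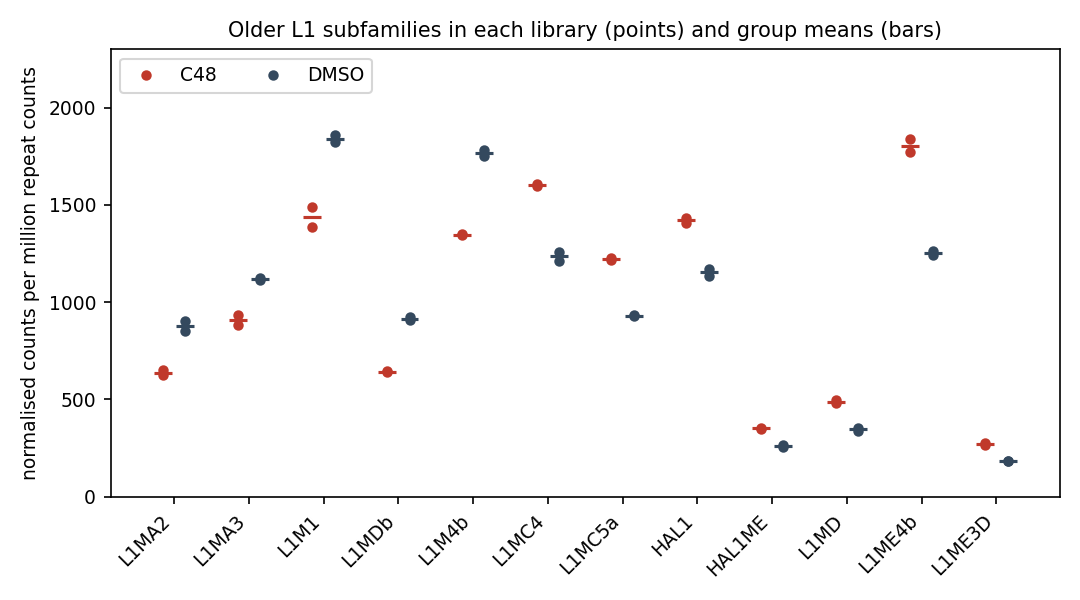
Normalised counts per M repeat counts (y axis) of 12 older L1 subfamilies (x axis) in each C48 library (red) and each DMSO library (dark), with points for libraries and bars for group means. The 5 subfamilies on the left have both C48 points below both DMSO points, and the 7 on the right have both above. The 12 were picked by hand, and subfamilies with small or overlapping differences, such as L1MA4A and HAL1M8, are not shown. Of all tested subfamilies 41.5% had both C48 libraries above both DMSO libraries and 40.5% had both below.

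The numbered L1M subfamilies spread furthest, with 10 of 25 higher, 9 lower and a median of 0.02, against 31.6% higher and 33.4% lower of all tested. With TMM on interspersed repeats 2 were higher and 15 lower, against 18.2% and 45.7% of all tested. The largest fall was that of L1M2a, with 49.2 and 46.6 CPM in C48, against 95.4 and 93.4 in DMSO (log2 fold change -0.98, SE 0.073, adjusted p = 6.87e-09 by edgeR). L1M1 had 1488 and 1389 CPM in C48, against 1821 and 1861 in DMSO (-0.36, SE 0.034, adjusted p = 1.19e-07 by edgeR). In both, the C48 libraries lay well below DMSO.

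L1M6B, the largest rise, had 37.4 and 34.5 CPM in C48, against 23.8 and 23.4 in DMSO (0.60, SE 0.097, adjusted p = 4.15e-05 by edgeR). L1M5 had 1982 and 1980.1 CPM in C48 and 1595 and 1626 in DMSO (0.30), and its call was lost with TMM on interspersed repeats. Both had C48 above DMSO in each library. L1M4b, singled out after its values were seen because of its peak at FAM3C, had 1344 and 1351 CPM in C48, against 1783 and 1749 in DMSO (-0.39).

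The 4 HAL1 subfamilies were higher in 3 and lower in none, with a median of 0.29, against 31.6% higher and 33.4% lower of all tested. HAL1ME had 355 and 348 CPM in C48, against 264 and 257 in DMSO (log2 fold change 0.43, SE 0.041, adjusted p = 1.14e-07 by edgeR). HAL1 itself had 1432 and 1409.5 CPM in C48, against 1136 and 1173 in DMSO (0.30), and HAL1b rose by 0.27. These 3 had both C48 libraries above DMSO, but HAL1 and HAL1b lost their calls with TMM on interspersed repeats. HAL1M8 had 95.5 and 92.9 CPM in C48 and 84.2 and 94.9 in DMSO, overlapping groups that were not called. HAL1M8 was called lower (-0.18) with TMM on interspersed repeats, so that 1 of the 4 was higher and 1 lower. Of all tested subfamilies 18.2% were higher and 45.7% lower with that scaling.

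Within lettered groups, the number in the name gives a finer order. Across the 10 L1MA subfamilies with a plain number, the log2 fold change went with that number (Spearman's rho 0.82), being -0.37 in L1MA1 and -0.46 in L1MA2 and 0.18 in L1MA10. Across 5 L1MC subfamilies rho was 0.90, across 7 L1MB subfamilies 0.36, and across 4 L1ME subfamilies -0.20. These are descriptions over few subfamilies that share all 4 libraries, and neighbours in name share reads. The order did not run on into L1PA and L1HS, which are younger than L1MA. Of 18 such subfamilies, 7 were higher and 6 lower, with a median of 0.02, against -0.16 in L1MA. Across all 92, mean count and log2 fold change had a rho of 0.23.

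**Figure D3:**
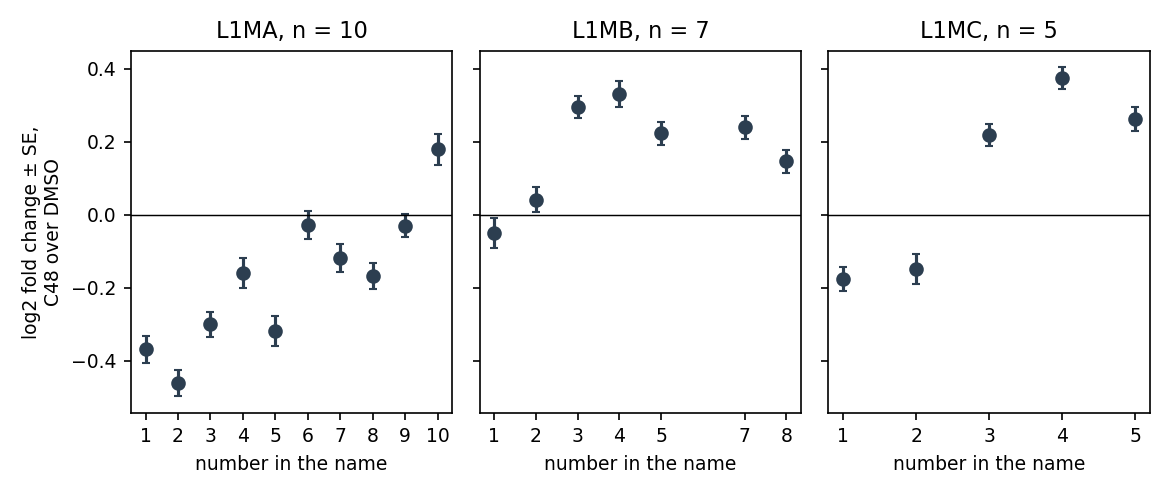
Log2 fold change, C48 over DMSO, with its standard error (y axis) against the number in the name (x axis) of L1MA, L1MB and L1MC subfamilies with a plain number. L1MA1 (-0.37), L1MC1 (-0.18) and L1MC2 (-0.15) lie below 0 and L1MA10 (0.18) above it, L1MA7 (-0.12) and L1MA8 (-0.17) lie below L1MA6 (-0.03), and L1MB shows a weaker order.

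The difference between the oldest and youngest lettered groups was also measured inside each library, where scaling cancels out. L1MA took 13.5% and 13.2% of older L1 counts in C48, against 16.3% and 16.5% in DMSO. L1ME took 30.0% and 30.5% in C48, against 27.3% and 27.1% in DMSO. The log2 ratio of L1ME to L1MA counts was 1.15 and 1.21 in C48 and 0.74 and 0.71 in DMSO, a difference of 0.45. The groups did not overlap, and the two-sided exact permutation test gave p = 0.333, the smallest that 2 against 2 libraries allow, so this comparison cannot reach 0.05.

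Which side of 0 the subfamilies fell on depended on the scaling. On aligned tags the median of older L1 subfamilies was 0.27, with 51 higher and 13 lower, against 36.9% higher and 25.5% lower of all tested. On the column total it was 0.07, with 44 higher and 33 lower (27.6% and 36.6% of all tested). With TMM on interspersed repeats it was -0.12, with 14 higher and 47 lower (18.2% and 45.7% of all tested). DESeq2 gave 46 higher and 23 lower (23.7% and 27.8%) and a median of 0.13. Over the same settings the median of all tested subfamilies moved between -0.24 and 0.15.

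The order among the 92 hardly moved between scalings (Spearman's rho of at least 0.9999 with the TMM values). This was fixed in advance, since the scalings differ almost only in a factor per library, and it does not measure robustness. Under all 5 scalings 14 subfamilies were called higher, or 15.2% against 16.4% of all tested and 34.5% of interspersed subfamilies. Another 13 were called lower, or 14.1% against 24.2% and 8.14%, and 65 were mixed. The share called higher was thus near that of all repeats. Of the 14, 8 were L1ME, and the rest were L1MC4, L1MC5a, L1MD, L1M4a1, L1M6B and HAL1ME. Of the 13, 4 were L1MA (L1MA1, L1MA2, L1MA3 and L1MA5), 1 was L1MDb and 8 were numbered L1M. The median of L1MA was below 0 and those of L1ME and HAL1 were above 0 under every one of the 5, but in places only just. With TMM on interspersed repeats L1ME was at 0.0044 and HAL1 at 0.027, and on aligned tags L1MA was at -0.038. L1MB, L1MC and L1MD were below 0 with TMM on interspersed repeats.

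**Figure D4:**
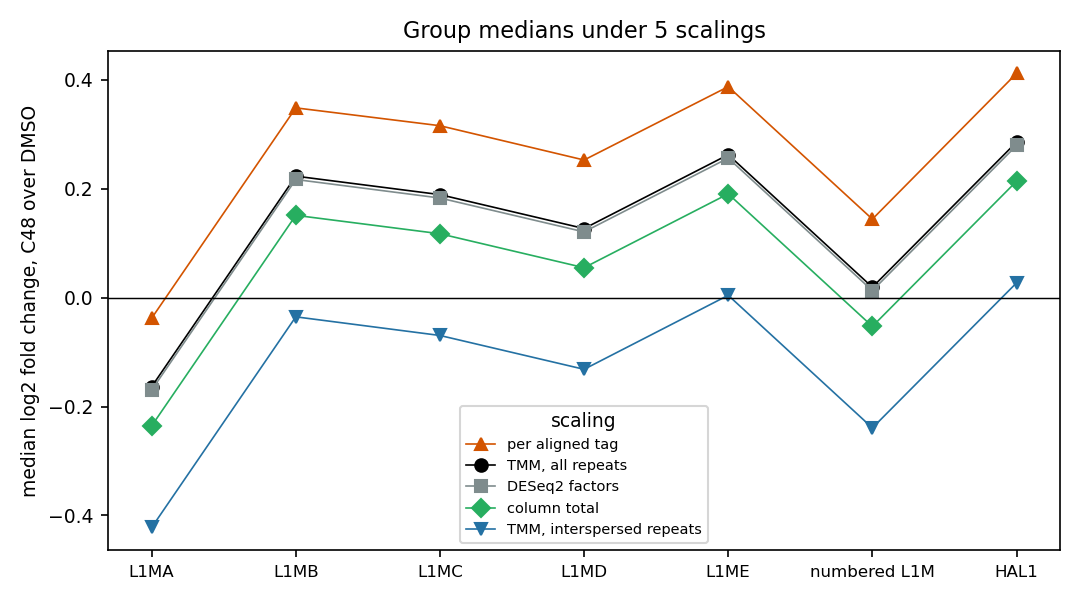
Median log2 fold change, C48 over DMSO (y axis), of each name group (x axis) under 5 scalings (symbols, joined to guide the eye). The lines run side by side by construction, with L1MA between -0.42 and -0.04 and L1ME between 0.0044 and 0.39.

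As a sum, older L1 took 5.09% and 5.01% of repeat counts in C48, against 4.86% and 4.97% in DMSO, a difference of 0.132 percentage points. Of interspersed repeat counts alone it took 7.62% and 7.57% in C48, against 8.85% and 8.96% in DMSO, the opposite direction. Per 100 aligned tags there were 1.02 and 0.967 older L1 counts in C48 and 0.814 and 0.870 in DMSO. The exact permutation test gave p = 0.333 for each, and the direction of the sum was set by its denominator.

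Set beside other repeats, the median of older L1 lay near that of younger L1 and below those of Alu, MIR, L2 and CR1. Of the 40 younger L1 subfamilies, 17 were higher and 9 lower, with a median of 0.04. The log2 ratio of older to younger L1 counts was -0.34 and -0.29 in C48 and -0.40 and -0.39 in DMSO (exact permutation p = 0.333). Of 53 tested Alu subfamilies all 53 were higher (median 0.46), as were all 5 MIR subfamilies (0.43), 9 of 11 tested L2 (0.47) and 13 of 18 tested CR1 (0.51). No Alu, MIR, L2 or CR1 subfamily was lower, whereas 27 older L1 subfamilies were. L2, CR1 and MIR are other old interspersed families, and Alu elements are young ones. The difference between older L1 and these families was not tested.

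Single sites were followed through the H3K4me3 peaks. Of 45692 peaks called in at least 1 of the 4 libraries, 561 were annotated to an older L1 element, and 81 of the 92 subfamilies had at least 1. The peak caller found 410 and 423 of them in C48, against 254 and 237 in DMSO. Peaks called in both C48 libraries and in neither DMSO library made up 21.2% of older L1 peaks, against 12.1% of all peaks. Those called in both DMSO libraries and in neither C48 library made up 2.85%, against 2.61% of all. Only 29.2% were called in all 4 libraries, against 53.5% of all peaks.

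Older L1 peaks were distal and weak beside all peaks, and so were younger L1 peaks. Of the 561, 358 were intergenic, 201 intronic and 2 elsewhere. The median distance to a transcription start site was 50.2 kb, against 10.3 kb for all peaks. Younger L1 peaks lay further away still, at a median of 98.5 kb, with 2135 of 2955 intergenic. The median scaled level of the 280 tested older L1 peaks was 10.7 tags per 10 M. It was 18.9 for 2171 tested younger L1 peaks and 56.3 for all 33772 tested peaks. The other 281 older L1 peaks were too weak to be tested. Of the tested peaks with a 300-base window, the median older L1 peak held 5 CG dinucleotides, against 12 in younger L1 peaks and 18 in all peaks. At least 1 CG stood in 96.0% of 278 older L1 windows and in 99.5% of 33675 windows of all tested peaks. Older L1 peaks called higher held a median of 5 CG, those called lower 2 and those not called 5, so the printed pair is not typical of the calls. CG count and log2 fold change had a Spearman's rho of 0.05 across the 278, as a description.

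In limma's test on log2(scaled value + 1), 280 older L1 peaks had a mean of at least 5 and were tested. Of these 141 were higher in C48 and 29 lower, or 50.4% and 10.4%, against 32.4% and 39.2% of the 33772 peaks tested. A call in at least 1 of the 4 libraries was enough to enter, so a peak could enter through C48 alone. Of all older L1 peaks, tested or not, 21.2% were called in both C48 libraries and in neither DMSO library, against 12.1% of all peaks. How much this entry rule adds to the share of rises was not tested. The median log2 fold change was 0.56 for older L1 peaks, 0.18 for 2171 younger L1 peaks and -0.02 for all. Weak peaks had a positive median in both sets. With a mean of 5 to 20, 98 of 206 older L1 peaks were higher and 22 lower (47.6% and 10.7%, median 0.58), near the 45.8% and 8.43% of all 11406 (median 0.52). At 20 and over, 43 of 74 older L1 peaks were higher and 7 lower (58.1% and 9.46%, median 0.53), against 25.5% and 54.9% of all 22366 (median -0.29). Of younger L1 peaks, 344 of 1137 were higher and 45 lower at 5 to 20 (median 0.33). At 20 and over, 270 of 1034 were higher and 258 lower (median -0.0012). The upper range has no upper end, and peaks were not matched for level within it.

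By name group, the median over peaks was 0.19 in L1MA (36 peaks), 0.69 in L1MB (27), 0.63 in L1MC (34), 0.98 in L1MD (22), 0.49 in L1ME (72), 0.34 in numbered L1M (76) and 1.03 in HAL1 (13). As among subfamilies, and in the same 4 libraries, L1MA was the lowest and HAL1 the highest, but the order between them differed. L1ME, whose subfamily median (0.26) lay above those of L1MB (0.22), L1MC (0.19) and L1MD (0.13), lay below each of them here. No L1MD or HAL1 peak was lower, but only 29 of all 280 tested older L1 peaks (10.4%) were. With 22 and 13 peaks, the absence of falls does not set these groups apart, and the difference was not tested.

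**Figure D5:**
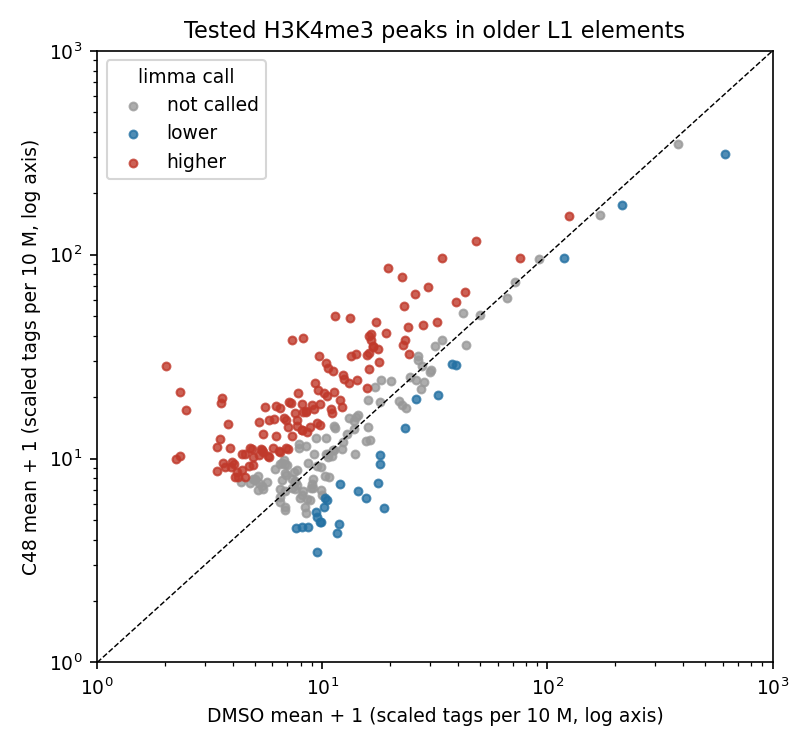
Mean scaled tags per 10 M plus 1 in C48 (y axis, log) against DMSO (x axis, log) for 257 of the 280 tested older L1 peaks (23 are not plotted), with 1 point per peak coloured by the limma call and a dashed line of equality. Most called peaks lie above the line at low levels, and the point furthest to the right below the line is the L1M4b peak at FAM3C.

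Among called peaks with a mean of at least 20 and no overlap between groups, the HAL1ME peak 14.9 kb from the long noncoding RNA LINC01695 was 1 of the 3 largest rises. It had 79.9 and 90.3 scaled tags per 10 M in C48, against 19.2 and 18.0 in DMSO (log2 fold change 2.13, SE 0.14, limma adjusted p = 4.31e-18). Each C48 library was several times the higher DMSO library. HAL1ME also rose as a subfamily (0.43), and reads in its peaks may be part of that total.

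Under the same conditions, the largest fall was the L1M4b peak 0.303 kb from the start of FAM3C, which encodes a secreted protein. It had 294 and 324 scaled tags in C48, against 604 and 627 in DMSO (log2 fold change -0.99, SE 0.054, limma adjusted p = 5.08e-21), and it stayed lower on tags per 10 M as deposited (-0.59). This peak lies in a CG-rich stretch beside a gene's promoter, and where the L1M4b element ends within it was not checked. Its read pairs amounted to 6.47% and 7.30% of the L1M4b counts in C48 and 8.54% and 8.74% in DMSO.

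The other 2 named falls were smaller. The L1MA3 peak in intron 1 of LURAP1L had 23.1 and 15.8 scaled tags in C48 and 29.5 and 33.5 in DMSO (-0.69), and the L1M3e peak nearest to JMJD1C had 32.4 and 22.8 in C48 and 33.8 and 42.9 in DMSO (-0.47). Both calls were lost on tags per 10 M as deposited (-0.30 and -0.08) and without C48 replicate 2, and that of L1M3e also without DMSO replicate 2.

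Peaks held only a small part of the subfamily counts. Read pairs in a subfamily's peaks, counted as tags divided by 2, came to a median of 2.60% of its counts (0% to 27.7%). That these pairs were counted for the subfamily was assumed, as their overlap with the element was not checked. Taking them out moved the log2 ratio by over 0.1 in 4 subfamilies (L1M2, L1M3f, L1M6 and HAL1ME, in which it became 0.32 in place of 0.43), chosen after their values were seen. The sign changed in 3, L1MDa, L1M2 and L1M7, none of which was called.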

How the data were processed

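The submitters' processing notes name Bowtie2 2.3.4.1 and hg38, and the authors counted repeats with RepEnrich2. In the deposited repeat table each subfamily has an estimated count per library, given as a whole number with reads that match several subfamilies shared between them, so near-identical subfamilies are less certain. The deposited peak table holds a signal, HOMER tags per 10 M aligned tags, at 110018 peaks merged over libraries that include other cell lines. The authors' peak score was not used. Columns tagged GNE are the C48 libraries, per the labels. Columns of other samples numbered 0.

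The study scaled on Drosophila spike-in reads, which were not used here. Libraries were scaled with TMM factors instead, so directions are relative, and a genome-wide change of the mark would not show. Subfamilies were tested with the edgeR 4.0.16 quasi-likelihood test after its default filter. Peaks called in at least 1 of the 4 libraries with a mean of at least 5 (33772) were tested in R 4.3.3 by limma 3.58.1, with log2(scaled value + 1) as the measure, which understates changes of weak peaks. At the depths fitted for this purpose, peak values are whole multiples of 1 tag in 100% of cases, within 0.1 tags. These tags were also tested with edgeR as an alternative. P-values were adjusted by Benjamini-Hochberg over all features tested. DESeq2 1.42.0 and limma-voom were alternatives, and both test scripts were tested on simulated data. Sums were compared by two-sided exact permutation. Sequences are from hg38.

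Members and lists were chosen with earlier results of these data known. Named subfamilies are, per group, the 2 with the highest mean count and the largest called rise and fall with a mean count of at least 100, and all HAL1. Named peaks are the 3 largest called rises and falls with a mean of at least 20 and no overlap, on numbered chromosomes or X. Chromosome 8 was left out of the named and plotted peaks. Of the named rises, 2 are not reported here.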

Additional observations from a re-analysis of the deposited data

How the results depend on the processing

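The direction of the older L1 median depended on the scaling: it was 0.068 on the column total, -0.12 with TMM on interspersed repeats and 0.27 on aligned tags, and 0.13 with no filter and 0.23 with a mean count of at least 100. With TMM on interspersed repeats 14 subfamilies were higher and 47 lower, on aligned tags 13 were lower, and with a mean count of at least 100, 16 were lower. The numbered L1M median became -0.053 on the column total. With TMM on interspersed repeats it was -0.24, and the medians were -0.035 for L1MB, -0.069 for L1MC and -0.13 for L1MD. The same scaling put L1MA10 at -0.079, L1MB7 at -0.018, L1MC3 at -0.039, L1MD2 at -0.051, L1ME1 at -0.089 and HAL1M8 at -0.18, and aligned tags put L1MA4A at 0.021. The older L1 share of interspersed counts differed by -1.31 percentage points. For peaks, tags as deposited gave 10 lower and a median of 0.99, a pseudocount of 5 gave 0.41, no filter gave 252 higher, 47 lower and 0.72, a mean of at least 20 gave 44 higher, 8 lower and 0.53, and edgeR on recovered tags gave 163 higher, 22 lower and 0.74. The cause of these moves was not tested.

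Leaving out each library in turn gave 45 to 47 subfamilies higher, 18 to 27 lower and a median of 0.12 to 0.14. It gave a numbered L1M median of -0.043 to 0.041, HAL1M8 at -0.02 to 0.14, older minus younger L1 medians 0.03 to 0.15 apart, and a share difference of 0.0765 to 0.187 percentage points. Peaks called higher ranged over 100 to 158, lower over 19 (without C48 replicate 2) to 27, and the median over 0.42 to 0.61. The lone library of a group was assumed to vary like the other group. Same-numbered libraries did not deviate together (r = -0.20 over 2922 subfamilies and -0.05 over 22366 peaks). With 2 libraries per group each r is a single contrast, so it cannot settle whether the numbers pair the libraries. A replicate block gave 47 higher and 25 lower subfamilies and 142 higher and 29 lower peaks, and the call of L1MCb was lost. The range of 5 to 20 for weak peaks was chosen after seeing the data. Standard errors were largest in L1M (0.16), which had the fewest counts.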
